A study of Ovis aries with 36 samples.

Results

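Longissimus dorsi muscle and perirenal adipose tissue of the same sheep fetuses were compared across all genes, using 24 of the 36 RNA-seq libraries of the series. All 12 muscle libraries and all 12 perirenal libraries were chosen by their tissue labels, and no measured value entered that choice. The question this comparison addresses is which genes separate the transcriptome of a late-gestation skeletal muscle from that of the fat depot around the kidney. The 24 libraries come from 12 pools of fetal RNA per tissue, made from 26 fetuses of 15 dams. In each tissue 4 pools came from ewes fed corn (CN), 4 from ewes fed dried corn distillers grains (DG) and 4 from ewes fed alfalfa haylage (HY, called hay in the sample labels), with 2 pools of female and 2 pools of male fetuses per diet. All ewes were bred to the same sire, and all fetuses were taken in late gestation. A pool code such as CF1 (CN, female, first pool) stands for the same fetuses in both tissues, so each pool was its own control. The number of fetuses differed between pools, pool CF2 holds a single fetus, some dams had fetuses in more than one pool, and p-values therefore measure the spread between pools rather than between animals.

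Skeletal muscle fibers are built from sarcomeres, in which myosin thick filaments pull on actin thin filaments anchored at the Z-disc, and contraction starts when calcium leaves the sarcoplasmic reticulum. Fibers form from myoblasts under the MyoD family of transcription factors, and late fetal muscle still holds embryonic and neonatal myosins. White fat cells store triglyceride in lipid droplets under PPARG and the C/EBP factors, while brown fat cells burn fatty acids and release the energy as heat through the uncoupling protein UCP1. In the fetal lamb the perirenal depot is the main store of such heat-producing fat, which serves the newborn.

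The files hold read counts, given here as CPM (counts scaled to a common library size) after scaling by the trimmed mean of M values (TMM). Total counts ranged from 13749762 to 29625146 per muscle library (median 20143802) and from 7802700 to 15913813 per perirenal library (median 10776612). The 10 genes with most reads took 15.3% to 19.5% of the named counts in muscle and 4.98% to 6.97% in perirenal fat. CPM values are not divided by gene length, so a level is read against the level of the same gene in the other tissue. Ranks by CPM, which were used to pick some genes, also depend on gene length and on joined loci. Loci had been assembled separately in each tissue, so for a gene whose locus was drawn differently that difference and one between the tissues cannot be told apart. The same span in both tissues was found for 8198 genes that could be fitted. A same span does not show that reads were filed alike, as IQGAP1, PRDX5 and MALAT1, described below, also had it. In these pieces of tissue, fewer cells of a type and less RNA per cell cannot be told apart either.

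The tissue labels were checked against defining genes. ACTA1, skeletal muscle actin, had 17707 to 34740 CPM (median 24730) in muscle and 0.162 to 68.9 CPM (median 8.66) in perirenal fat. PAX7, the transcription factor of muscle stem cells, had 34.7 to 49.2 CPM in muscle and no count in any of the 12 perirenal libraries. ADIPOQ, the fat cell hormone adiponectin, had 3.41 to 44.6 CPM (median 10.5) in muscle and 2797 to 10828 CPM (median 4135) in perirenal fat. PPARG2, the fat isoform name under which the files list the adipogenic regulator PPARG, had 18.2 to 33.9 CPM (median 23.5) in muscle and 287 to 392 CPM (median 319) in perirenal fat. The 2 tissues did not overlap in any of these 4 genes, and every library carried the genes of its label. Traces of muscle transcripts were present in all 12 perirenal libraries. The summed level of ACTA1, CKM, MYH8 and TNNT3 was between 5.98 and 230.5 CPM there, which is 0.009% to 0.347% of the muscle median. In DF1 and CF2, the lowest, TNNT3 made most of the sum at 4.99 and 6.06 CPM, and CKM had 1 count and 0. The span of TNNT3 differed between the tissues, so the low end of this range rests mostly on that locus.

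**Figure D1:**
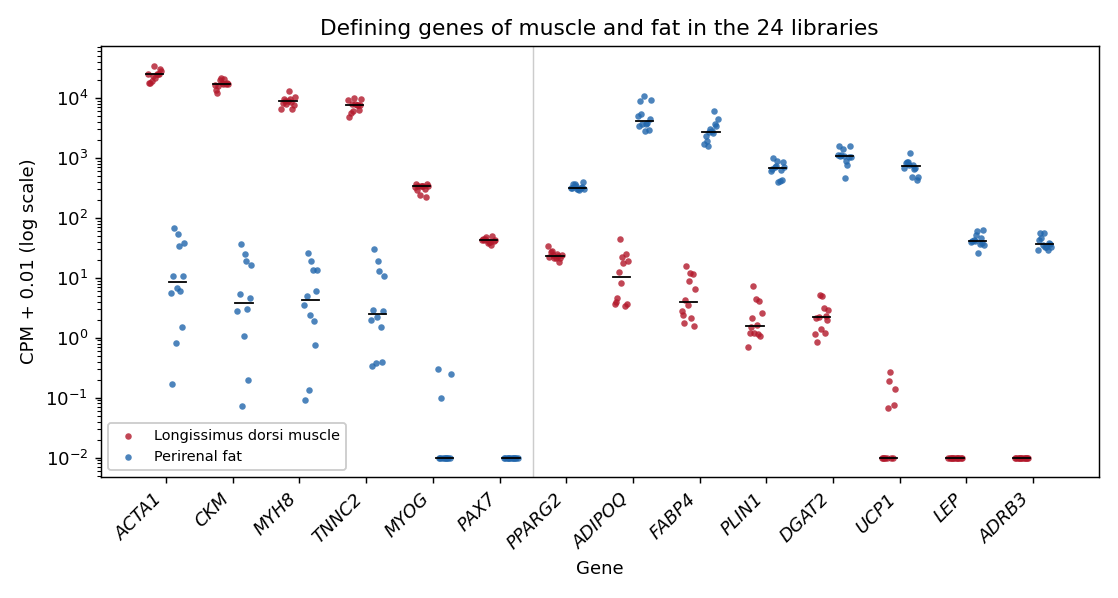
Levels of 14 defining genes in the 12 muscle and 12 perirenal libraries, as CPM plus 0.01 on a log axis, with 1 point per library and a black line at the median of each tissue. The 6 muscle genes on the left lie higher in every muscle library and the 8 fat genes on the right lie higher in every perirenal library; points at 0.01 are libraries without a count.

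A total of 12485 genes had enough counts to be tested, of which 10827 carry a gene symbol. With pool as a block, 10260 genes (82.2%) differed between the tissues at FDR ≤0.05 by the quasi-likelihood F test, 5092 (40.8%) higher in muscle and 5168 (41.4%) higher in perirenal fat. At a difference of at least 4-fold, 2426 genes (19.4%) passed, 1499 (12%) higher in muscle and 927 (7.42%) higher in perirenal fat. In 5149 genes (41.2%) all 12 libraries of one tissue lay above all 12 of the other, with muscle above in 2702 (21.6%) and perirenal fat above in 2447 (19.6%). The first principal component of log2 CPM held 88.9% of the variance and separated the tissues, and the second held 2.02%. With most genes called, the counts below are read against these shares. The balance of calls depends on the scaling. Muscle took 49.6% of the calls under TMM and 32.7% under library totals alone, which moved log2 fold changes by a median of -0.42, so a gene between 0 and about that size on the muscle side changes sign under that scaling. Changes are reported relative to TMM.

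The 8 lists that make up the muscle apparatus were almost wholly on the muscle side. Of their 128 tested members 124 were higher in muscle, 2 were higher in perirenal fat and 2 were not called, with a median log2 fold change of 7.68 against -0.01 over all genes tested. The 4 lists of fat storage genes were on the perirenal side with a wider mixture. Of 80 tested members 62 were higher in perirenal fat, 12 were higher in muscle and 6 were not called, with a median of -1.58. All 12 pools of one tissue lay above all 12 of the other in 124 of the 128 muscle members and in 51 of the 80 fat members.

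**Figure D2:**
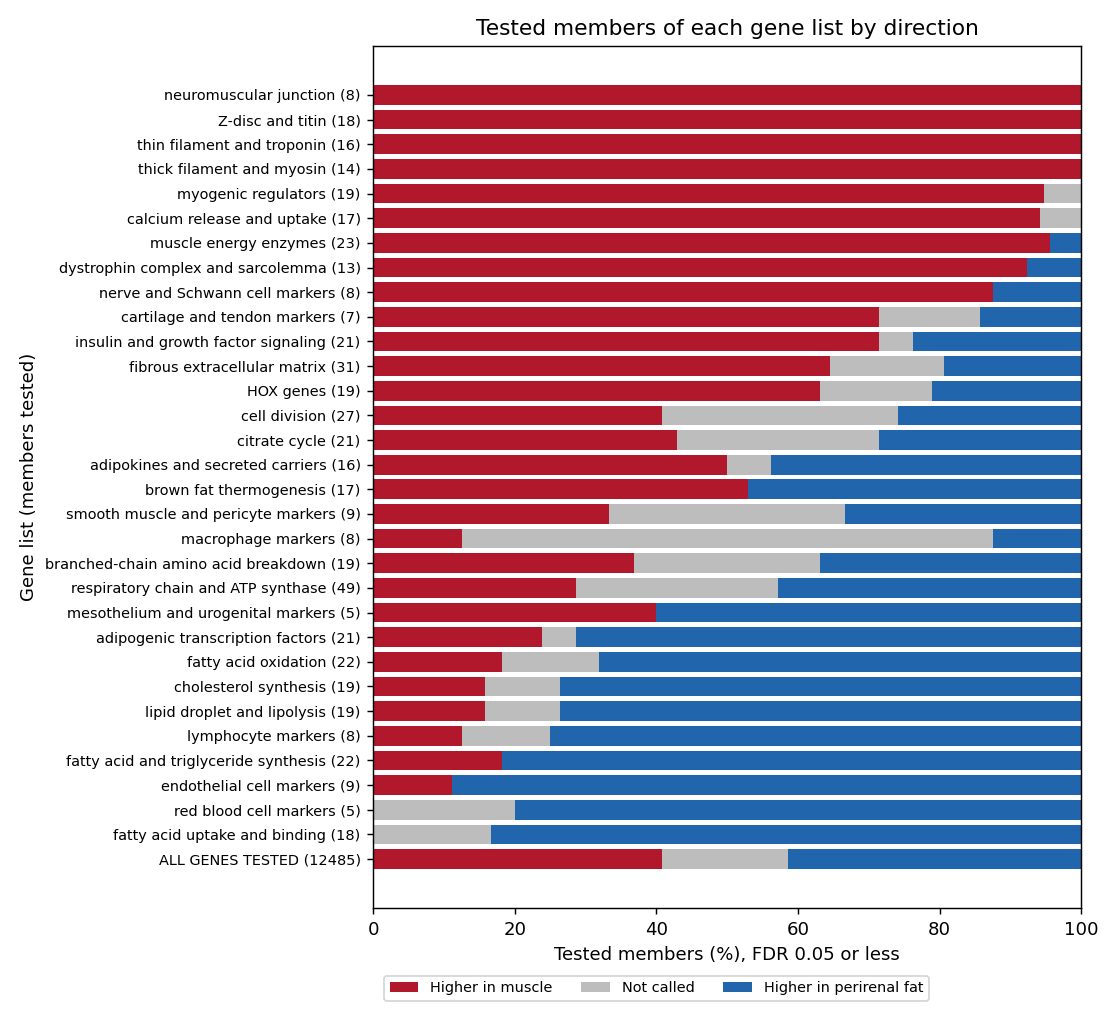
Share of the tested members of 31 gene lists that were higher in muscle, higher in perirenal fat or not called at FDR ≤0.05, with the number tested in parentheses and all 12485 genes at the bottom. The 3 filament and Z-disc lists and the neuromuscular junction list are wholly on the muscle side, while lists of fatty acid uptake, lipid storage, cholesterol synthesis and endothelial genes lie mostly on the perirenal side.

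The contractile filaments were wholly on the muscle side. All 14 tested members of the thick filament list were higher in muscle (median log2 fold change 8.87), and so were all 16 of the thin filament list (8.62) and all 18 of the Z-disc and titin list (8.33). MYLPF, the fast regulatory light chain, had 18209 to 35786 CPM (median 29056) in muscle and 0.555 to 192 CPM (median 16.6) in perirenal fat. MYL1, the fast essential light chain, had 16037 to 31194 CPM (median 25718) in muscle and 0.247 to 176 CPM (median 15.8) in perirenal fat. TNNC2, the calcium sensor of fast fibers, had 4823 to 9852 CPM (median 7703) in muscle and 0.323 to 30.0 CPM (median 2.52) in perirenal fat. In each of them every muscle library lay far above every perirenal library. Their log2 fold changes were 10.94 ± 0.79, 10.999 ± 0.88 and 11.02 ± 0.64 (SE).

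Myosins of late fetal muscle were prominent. MYH8, the neonatal heavy chain, had 6491 to 12976 CPM (median 8784) in muscle and 0.0808 to 26.2 CPM (median 4.21) in perirenal fat and a log2 fold change of 10.93 ± 0.65 (SE). The files join the embryonic chain MYH3 and the fast adult chains MYH1, OMYHC2A and OMYHC2X under a single locus on chromosome 11, which had 36287 to 59764 CPM (median 45844) in muscle and 0.432 to 159 CPM (median 18.3) in perirenal fat. These chains cannot be told apart in that locus. Slow fiber genes were on the same side, as MYL2, the slow light chain, had a mean of 3736 CPM in muscle and 2.80 CPM in perirenal fat and TNNT1, slow troponin T, 1559 CPM in muscle and 3.73 CPM in perirenal fat. MYL3, the slow and ventricular light chain, showed the smallest difference of the thick filament list at 4.86 ± 0.54 (SE). On the thin filament the smallest difference was that of TPM3, slow tropomyosin, which non-muscle cells also make, at 2.63 ± 0.12 (SE).

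At the Z-disc TTN, the giant spring protein titin, had 6924 to 11940 CPM (median 8497) in muscle and 0.485 to 59.1 CPM (median 6.89) in perirenal fat. ACTN2, the actinin that crosslinks thin filaments, had 3687 to 6289 CPM (median 5453) in muscle and 1.48 to 23.9 CPM (median 5.19) in perirenal fat. MYPN, myopalladin, which ties titin and nebulin to the Z-disc, had 5 counts over the 12 perirenal libraries against a mean of 608 CPM in muscle. LDB3, a Z-disc scaffold, differed by 7.70 ± 0.22 (SE). CAPN3, the muscle calpain, and PDLIM5, an adapter found in many cell types, differed least, at 4.11 ± 0.11 and 3.52 ± 0.10 (SE). TCAP, the titin cap, and TMOD4, the skeletal tropomodulin, had no common name in both tissues. As loci joined with their neighbors they were higher in muscle by 4.80 and 4.49 on the log2 scale.

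Calcium handling genes followed, with 16 of 17 tested members higher in muscle and a median of 8.20. RYR1, the calcium release channel of the sarcoplasmic reticulum, had 1662 to 2399.5 CPM (median 2064) in muscle and 0.565 to 8.22 CPM (median 1.61) in perirenal fat. ATP2A1, the fast fiber calcium pump, had 5165 to 7267 CPM (median 5708) in muscle and 5.80 to 27.3 CPM (median 8.29) in perirenal fat. CASQ1, the calcium buffer of fast fibers, differed by 9.42 ± 0.33 (SE). Only ASPH was not called in this list, a locus that also makes an enzyme of the endoplasmic reticulum in many cells, with mean levels of 651 CPM in muscle and 719.6 CPM in perirenal fat. PLN, phospholamban, the inhibitor of the pump in slow and cardiac muscle, differed by 2.53 ± 0.15 (SE). JPH1, which couples the release channel to the surface membrane, was higher in muscle by 10.69 as a locus joined with an unnamed neighbor.

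The dystrophin complex links the fiber to its matrix, and 12 of its 13 tested members were higher in muscle (median 4.40). CAV3, the muscle caveolin, had means of 328 CPM in muscle and 0.307 CPM in perirenal fat. SGCB, beta-sarcoglycan, and LAMA2, the laminin chain of the fiber's basement membrane, differed by 3.23 ± 0.08 and 3.46 ± 0.12 (SE). ITGA7, the laminin-binding integrin known from muscle fibers, was the exception. Its levels were 399.7 to 772 CPM (median 534) in muscle and 1347 to 3341 CPM (median 2284) in perirenal fat, and every perirenal library lay above every muscle library, with a log2 fold change of -2.03 ± 0.13 (SE). DYSF, the membrane repair protein dysferlin, was near the line at 0.20 ± 0.09 (SE) and changed sign under library totals alone. All 8 tested genes of the neuromuscular junction were higher in muscle, with a median of 6.49. CHRNA1, an acetylcholine receptor subunit, had means of 277 CPM in muscle and 0.381 CPM in perirenal fat, and MUSK, the kinase that gathers these receptors, 11.8 CPM in muscle and 0.0698 CPM in perirenal fat. CHRNB1 and CHRNE, further receptor subunits, and LRP4, the receptor for the nerve signal agrin, differed by 5.06 ± 0.13, 3.30 ± 0.23 and 3.95 ± 0.16 (SE).

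Of 19 tested myogenic regulators 18 were higher in muscle. The median log2 fold change was 8.68, or 8.38 with the 3 genes without a perirenal count set to their lower bounds. MYOG, myogenin, which drives myoblasts to fuse and differentiate, had 224 to 365 CPM (median 335) in muscle and 0 to 0.292 CPM (median 0) in perirenal fat. MYF6, the member of the MyoD family found in mature fibers, had 63.9 to 97.5 CPM (median 85.9) in muscle and 0 to 0.415 CPM (median 0.0740) in perirenal fat. PAX7 was at least 1817-fold higher in muscle, a bound set by 3 counts over the 12 perirenal libraries. MYOD1, which commits cells to the muscle lineage, had too few counts to be tested. It had 676 counts over the 12 muscle libraries and none in perirenal fat, and was at least 151-fold higher in muscle. Myostatin, the brake on muscle growth, listed as GDF-8, had means of 24.8 CPM in muscle and 0.0573 CPM in perirenal fat. Factors that other tissues share differed less, with MEF2A at 0.66 ± 0.08 and MEF2D at 1.93 ± 0.07 (SE). MEF2C, the member of this family enriched in muscle, differed by 1.43 ± 0.11 (SE).

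The energy enzymes of muscle were higher in muscle in 22 of 23 tested members, with a median of 3.03. CKM, muscle creatine kinase, which buffers ATP, had 12200 to 21287 CPM (median 16990) in muscle and 0 to 36.4 CPM (median 3.82) in perirenal fat. PYGM, the glycogen phosphorylase of muscle, had 1248 to 2584 CPM (median 1965) in muscle and 1.90 to 6.61 CPM (median 3.25) in perirenal fat. MB, the oxygen store myoglobin, had means of 499.6 CPM in muscle and 2.62 CPM in perirenal fat. ENO3, the muscle enolase, and ALDOA, the muscle aldolase, differed by 8.88 ± 0.25 and 2.77 ± 0.12 (SE). Among glycolytic enzymes that all cells carry, GAPDH differed by 2.90 ± 0.14 and PGK1 by 1.72 ± 0.10 (SE). PFKFB1, the regulator of fructose 2,6-bisphosphate known from liver and muscle, was the exception, with 3.15 to 11.1 CPM (median 6.39) in muscle and 44.7 to 118 CPM (median 67.0) in perirenal fat. AMPD1, the muscle AMP deaminase, was higher in muscle by 4.26 as a joined locus.

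On the fat side, 15 of 21 tested adipogenic transcription factors were higher in perirenal fat, 5 were higher in muscle and 1 was not called (median -1.54). CEBPA, which acts with PPARG to complete fat cell differentiation, had 3.14 to 7.83 CPM (median 4.93) in muscle and 169 to 392 CPM (median 275) in perirenal fat and a log2 fold change of -5.74 ± 0.19 (SE). PPARG2 differed by -3.78 ± 0.09 (SE). MLXIPL, the carbohydrate-sensing factor ChREBP, had means of 8.99 CPM in muscle and 166 CPM in perirenal fat, and EBF2, a selector of the brown fat fate, 53.4 CPM in muscle and 237 CPM in perirenal fat. STAT5A, which carries growth hormone and prolactin signals, differed by -2.24 ± 0.10 (SE). TCF21, a factor of visceral mesenchyme, had 0 to 0.174 CPM (median 0) in muscle and 1.31 to 7.89 CPM (median 3.08) in perirenal fat. The 5 members on the muscle side were TBX15, KLF5, RXRA, CEBPB and ZNF423. TBX15, a factor of trunk mesoderm, had 17.3 to 59.8 CPM (median 36.5) in muscle and 0 to 0.581 CPM (median 0.113) in perirenal fat. KLF5, a factor of early fat cell differentiation, had 46.1 to 88.6 CPM (median 63.6) in muscle and 0.190 to 8.08 CPM (median 1.498) in perirenal fat. CEBPB and RXRA had low levels in both tissues, with log2 fold changes of 1.45 ± 0.28 and 2.002 ± 0.23, and ZNF423 differed by 0.29 ± 0.06 (SE), a size that lies within the shift between scalings.

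Lipid droplet and lipolysis genes were higher in perirenal fat in 14 of 19 tested members (median -1.84). PLIN1, the coat protein of the fat cell's droplet, had 0.690 to 7.33 CPM (median 1.57) in muscle and 403 to 996 CPM (median 676) in perirenal fat and a log2 fold change of -8.23 ± 0.35 (SE). CIDEC, which fuses droplets, had 0.173 to 3.30 CPM (median 0.643) in muscle and 49.1 to 172 CPM (median 86.4) in perirenal fat. Of the lipases, HSL, hormone-sensitive lipase, differed by -3.39 ± 0.19 and PNPLA2, adipose triglyceride lipase, by -0.72 ± 0.11 (SE). AQP7, the glycerol channel of fat cells, and SDPR, a caveolar protein, differed by -1.84 ± 0.13 and -0.50 ± 0.11 (SE). PLIN5, the perilipin of oxidative tissues, was not called, with means of 46.3 CPM in muscle and 39.9 CPM in perirenal fat. CAV1, CAV2 and PTRF, which shape caveolae, were higher in muscle. PTRF had 165 to 234 CPM (median 200.1) in muscle and 2.85 to 18.0 CPM (median 11.5) in perirenal fat. Its locus had the same span in both tissues, which does not show that its reads were filed alike.

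No tested member of the fatty acid uptake list was higher in muscle, while 15 of 18 were higher in perirenal fat and 3 were not called (median -1.21). FABP4, the fatty acid binding protein of fat cells, had 1.56 to 15.7 CPM (median 3.90) in muscle and 1558 to 6053 CPM (median 2739) in perirenal fat and a log2 fold change of -9.17 ± 0.41 (SE). LPL, which frees fatty acids from circulating lipoproteins, had 92.3 to 156 CPM (median 125) in muscle and 407 to 2653 CPM (median 919.9) in perirenal fat. ANGPTL4, an inhibitor of LPL, had 1.83 to 5.95 CPM (median 4.07) in muscle and 155 to 523 CPM (median 219.5) in perirenal fat. ACSL1, which activates long-chain fatty acids, differed by -1.61 ± 0.12 (SE). FABP3, the form of heart and muscle, listed as H-FABP, was not called at -0.21 ± 0.10 (SE), and its name also stands in a joined name.

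Fatty acid and triglyceride synthesis genes were higher in perirenal fat in 18 of 22 tested members (median -1.76). DGAT2, which adds the last fatty acid of a triglyceride, had 0.840 to 5.20 CPM (median 2.17) in muscle and 455 to 1573 CPM (median 1081) in perirenal fat and a log2 fold change of -8.84 ± 0.31 (SE). FASN, fatty acid synthase, had 11.5 to 55.9 CPM (median 21.1) in muscle and 162 to 442 CPM (median 246) in perirenal fat. ACSS2, which turns acetate, the main carbon source for fat in ruminants, into acetyl-CoA, had 83.7 to 114 CPM (median 98.7) in muscle and 595 to 1898 CPM (median 960.2) in perirenal fat. SCD, the delta-9 desaturase, had 46.5 to 106 CPM (median 65.9) in muscle and 394 to 1751 CPM (median 1209) in perirenal fat. ACLY, which cleaves citrate to acetyl-CoA, differed by -3.10 ± 0.12 (SE). The 4 members on the muscle side were ACACB at 1.78 ± 0.17, the acetyl-CoA carboxylase of the mitochondrial surface, AGPAT9 at 4.41 ± 0.20, SCD5 at 0.58 ± 0.12 and FADS2 at 0.40 ± 0.12 (SE). The size of FADS2 lies within the shift between scalings. Under library totals alone 2 members were higher in muscle, 18 were higher in perirenal fat and 2 were not called. ME1, which makes NADPH for this path, differed by -0.92 ± 0.16 (SE).

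The brown fat list was split. Of 17 tested members 8 were higher in perirenal fat and 9 were higher in muscle, and the list median of 0.34 turned to -0.08 under library totals alone and to -2.38 in a fit of the genes with the same span in both tissues, which holds 9 of the members. The perirenal members were UCP1, ADRB3, DIO2, CIDEA, EVA1A, PRDM16, UCP2 and EBF2. UCP1, which lets protons leak across the mitochondrial membrane, had 0 to 0.254 CPM (median 0) in muscle and 429 to 1197 CPM (median 719) in perirenal fat, from 13 counts over the 12 muscle libraries, with a log2 fold change of -13.21 ± 0.29 (SE). DIO2, the deiodinase that makes active thyroid hormone within the cell, had 0 to 0.196 CPM (median 0.102) in muscle and 63.0 to 182 CPM (median 114) in perirenal fat. ADRB3, the beta-adrenergic receptor of fat cells, had 28.6 to 55.2 CPM in perirenal fat and no count in muscle, at least 2451-fold higher. CIDEA, a droplet protein of brown fat cells, had means of 1.74 CPM in muscle and 154 CPM in perirenal fat, and PRDM16, which holds brown fat identity, 0.952 CPM in muscle and 7.68 CPM in perirenal fat.

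The members on the muscle side included coactivators and oxidative genes that muscle shares. PPARGC1A, the coactivator that drives mitochondrial growth, had 47.6 to 70.1 CPM (median 61.9) in muscle and 2.24 to 8.36 CPM (median 4.92) in perirenal fat and a log2 fold change of 3.65 ± 0.13 (SE). PPARGC1B differed by 3.43 ± 0.14 (SE), and PPARA, a receptor that turns on fatty acid oxidation, by 2.01 ± 0.15 (SE). COX7A1, a cytochrome c oxidase subunit of muscle and brown fat, differed by 0.34 ± 0.14 (SE) and changed sign under library totals alone. UCP3, the uncoupling protein of muscle, had 17.9 to 58.2 CPM (median 31.8) in muscle and 0 to 0.280 CPM (median 0.0832) in perirenal fat. ESRRG, an orphan receptor of oxidative tissues, had 20.6 to 42.6 CPM (median 30.5) in muscle and 0 to 0.0972 CPM (median 0) in perirenal fat. ZIC1, known as a marker of dorsal brown fat, had 7.17 to 12.97 CPM in muscle and no count in any perirenal library, and was at least 430-fold higher in muscle.

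Secreted products of fat were also mixed, with 7 of 16 tested members higher in perirenal fat, 8 higher in muscle and 1 not called. Under library totals alone 8 were higher in perirenal fat, 7 were higher in muscle and 1 was not called. LEP, leptin, had 26.1 to 63.8 CPM in perirenal fat and no count in muscle, at least 2838-fold higher. ADIPOQ differed by -8.92 ± 0.53 (SE). NNAT, neuronatin, had means of 2.23 CPM in muscle and 276 CPM in perirenal fat, from a locus that overlaps BLCAP. NRG4, a growth factor released by brown fat, had means of 1.77 CPM in muscle and 26.7 CPM in perirenal fat. VEGFA, the growth factor of blood vessels, was higher in muscle with 552 to 1137 CPM (median 686) in muscle and 257 to 479 CPM (median 406) in perirenal fat. The direction of CFD, adipsin, depended on the name. It was higher in muscle at 2.51 ± 0.27 (SE) by its own name, and higher in perirenal fat by 0.57 once the locus joining it with MED16 was added.

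Of the mitochondrial pathways, fatty acid oxidation leaned to perirenal fat. The citrate cycle, respiratory chain and branched-chain amino acid lists had divided calls and small medians. In the fatty acid oxidation list 15 of 22 tested members were higher in perirenal fat, 4 were higher in muscle and 3 were not called (median -0.60). Under library totals alone these numbers were 18, 2 and 2. CPT1A, the isoform that controls fatty acid entry into mitochondria outside muscle, had 12.8 to 27.9 CPM (median 17.4) in muscle and 544 to 982 CPM (median 670.0) in perirenal fat. SLC25A20, the carnitine carrier, had 42.6 to 57.4 CPM (median 49.7) in muscle and 194 to 509.6 CPM (median 339) in perirenal fat. HADHA, of the trifunctional protein, differed by -1.52 ± 0.14 (SE). ECI2, which handles unsaturated chains, differed by -2.31 ± 0.13 (SE), and HADH was not called at -0.01 ± 0.12 (SE). ACADVL, the first enzyme for very long chains, had means of 1.16 CPM in muscle and 173 CPM in perirenal fat, from a span shared with DLG4 and DVL2 in both assemblies, so this value is uncertain.

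Of 21 tested citrate cycle genes 9 were higher in muscle, 6 were higher in perirenal fat and 6 were not called (median -0.01), and under library totals alone 4 were higher in muscle and 11 in perirenal fat. CS, citrate synthase, was higher in muscle with 446 to 685 CPM (median 541) in muscle and 97.1 to 269.9 CPM (median 157) in perirenal fat. ACO1, the cytosolic aconitase, was higher in perirenal fat at -1.33 ± 0.12 (SE). MDH2, the mitochondrial malate dehydrogenase, was higher in muscle at 0.62 ± 0.12 and SUCLG1 at 0.26 ± 0.11 (SE), the latter changing sign under library totals alone, while MDH1 and SDHA were not called at -0.13 ± 0.14 and -0.23 ± 0.11 (SE). IDH1, the cytosolic isocitrate dehydrogenase, which makes NADPH for fatty acid synthesis in ruminants, had 55.6 to 96.3 CPM (median 70.2) in muscle and 315 to 905 CPM (median 620.3) in perirenal fat.

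Of 49 tested genes of the respiratory chain and ATP synthase 14 were higher in muscle, 21 were higher in perirenal fat and 14 were not called (median -0.12), and under library totals alone the numbers were 4, 33 and 12. COX6A2, the heart and muscle subunit of cytochrome c oxidase, had 102 to 487 CPM (median 182) in muscle and 0.0830 to 0.715 CPM (median 0.242) in perirenal fat and a log2 fold change of 9.40 ± 0.21 (SE). COX4I1, a subunit of the same enzyme in all cells, differed by -0.78 ± 0.14 (SE). In complex V, ATP5G3 was higher in muscle by 1.10 ± 0.08 and ATP5O was higher in perirenal fat at -1.42 ± 0.10 (SE). ATP5B, the catalytic subunit, was not called, with means of 1724 CPM in muscle and 1603 CPM in perirenal fat. ATP5A1, its partner subunit, was higher in perirenal fat at -0.37 ± 0.16 (SE), but not in HY pools taken alone, where it was 0.0482.

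Branched-chain amino acid breakdown was split evenly under TMM, with 7 of 19 tested genes higher in each tissue and 5 not called, but under library totals alone 3 were higher in muscle, 9 were higher in perirenal fat and 7 were not called. BCKDHA, of the complex that commits these acids to oxidation, was higher in perirenal fat at -1.76 ± 0.11 (SE), and DBT, another part of it, was higher in muscle at 0.79 ± 0.08 (SE). DLD, a subunit shared with other complexes, and HSD17B10 were higher in perirenal fat at -0.54 ± 0.13 and -1.82 ± 0.12 (SE), and ACAT1 was higher in muscle at 0.27 ± 0.12 (SE), with the opposite sign under library totals alone. Cholesterol synthesis leaned to perirenal fat, with 14 of 19 tested genes higher there, 3 higher in muscle and 2 not called (median -0.96). IDI1, the isomerase that makes the second building block of isoprenoids, had 20.6 to 37.4 CPM (median 26.9) in muscle and 159.6 to 432 CPM (median 264) in perirenal fat. INSIG1, the sterol-dependent brake of this pathway, differed by -2.66 ± 0.14 (SE). MSMO1, a sterol oxidase, differed by -1.69 ± 0.12 (SE). On the muscle side were DHCR7 at 3.19 ± 0.19, PMVK at 2.003 ± 0.12 and FDFT1 at 0.32 ± 0.10 (SE), the last of which changed sign under library totals alone.

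**Figure D3:**
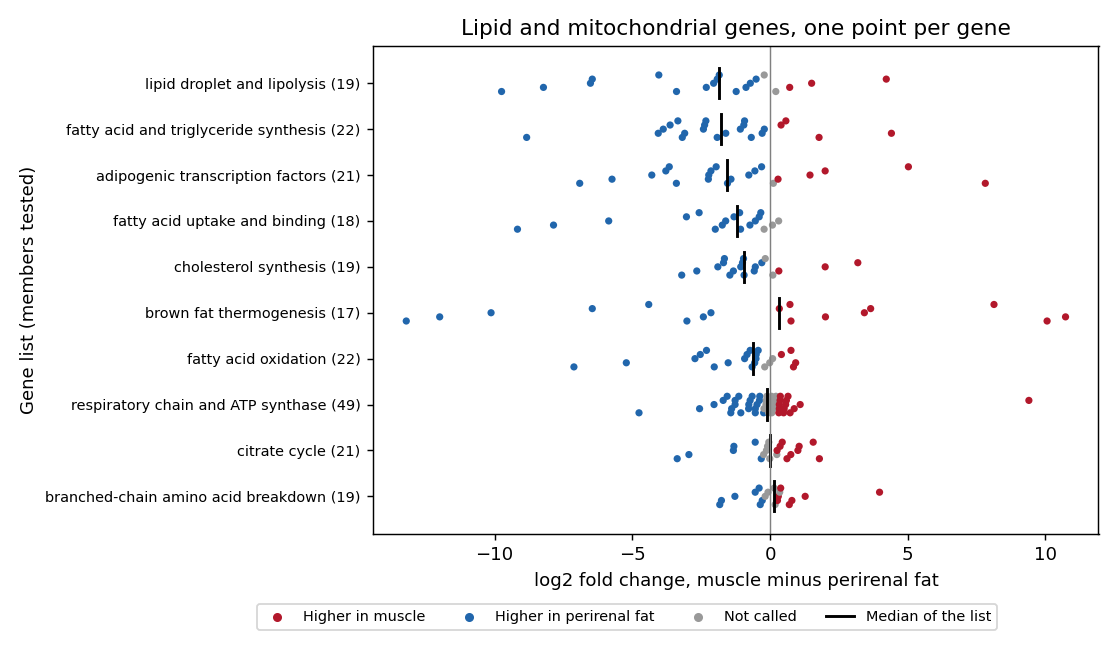
Log2 fold changes, muscle minus perirenal fat, of the tested members of 10 lipid and mitochondrial lists, with 1 point per gene colored by its call and a black bar at the median. Storage and synthesis lists lie to the left of 0, most respiratory chain and citrate cycle genes gather around 0 with COX6A2 far to the right at 9.40, and the brown fat list spreads from -13.21 to 10.73.

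Several proteins exist as a muscle form and a form of other tissues. In 29 of 42 listed pairs both genes were tested, and in 16 of them the first, muscle-associated gene was higher in muscle and the second was higher in perirenal fat. In 26 of the 29 pairs the log2 fold change of the first gene exceeded that of the second, in the fit and in each of the 12 pools. Both counts include LDHA with LDHB and COX7A1 with COX7A2, whose second members rest on uncertain loci described below. COX7A1 also changed sign under library totals alone. Both genes of a pair were higher in muscle in 10 of the 29 pairs. CPT1B, the muscle form of the carnitine transferase, had a log2 fold change of 0.76 and CPT1A one of -5.22. SLC25A4 and SLC25A5, the adenine nucleotide carriers, had 3.01 and -2.89. The lactate carriers SLC16A3, known for export, and SLC16A1 had 3.91 against -1.92. Among phosphofructokinases, PFKM had 6.26 against -1.08 for PFKL and -0.99 for PFKP, whose name also stands in a joined name. Desmin, DES, the filament protein of muscle, had 8.14, and vimentin, VIM, that of mesenchymal cells, had -1.56.

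The exceptions to the pattern were 3 pairs. PDK4, the pyruvate dehydrogenase kinase induced by fatty acids, was higher in perirenal fat at -1.41 while PDK2 was higher in muscle at 1.35. TUBA8 and TUBA1B were both higher in perirenal fat, at -1.24 and -0.30, and in 1 of the 12 pools their order was the other way. BCAT1 had 3.98 and BCAT2 had 1.28. LDHA, the lactate dehydrogenase of glycolytic muscle, had 4.41. The locus named LDHB had -7.20, but it is a span of about 1 kb on chromosome 15 (9688228 to 9689245), another chromosome than that of the RefSeq gene of this name, and its reads cannot be assigned to that gene with certainty. The locus named COX7A2 spans 43974805 to 43975054 on chromosome 14, and its value of -2.56 is uncertain because this span is short for a gene.

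**Figure D4:**
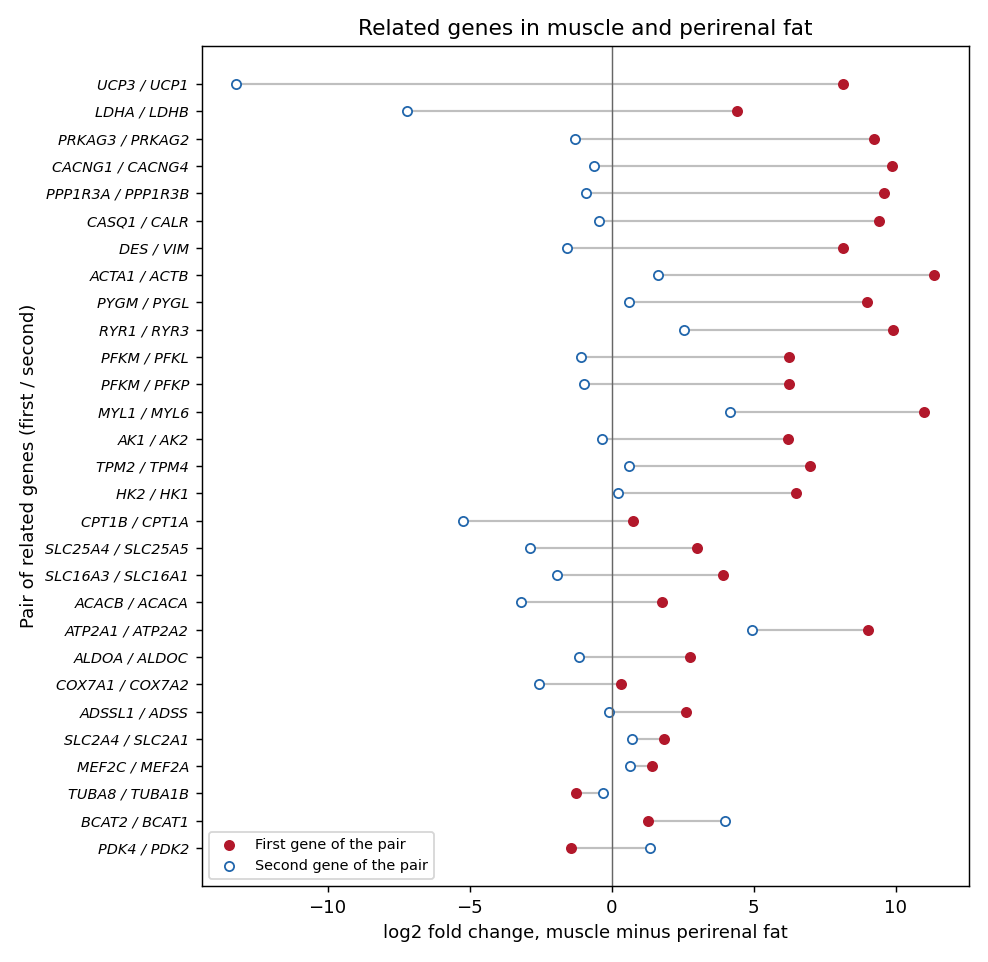
Log2 fold changes, muscle minus perirenal fat, of the 29 pairs of related genes with both members tested, with the muscle-associated gene as a filled point and its relative as an open point. The filled point lies to the right in 26 pairs, and in 16 of the 29 the pair spans 0 with the filled point on the muscle side. Both counts include the pairs of the uncertain loci named LDHB and COX7A2.

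HOX genes mark position along the body axis, and as a list they were called about as often as all genes tested. Of 19 tested members 12 were higher in muscle, 4 were higher in perirenal fat and 3 were not called (median 1.27). HOXA10 had 25.2 to 65.3 CPM (median 47.9) in muscle and 4.15 to 14.0 CPM (median 8.46) in perirenal fat, HOXC9 had 36.9 to 81.8 CPM (median 56.1) in muscle and 9.47 to 17.4 CPM (median 14.1) in perirenal fat, and in both genes every muscle library was above every perirenal library. HOXD8 differed by 1.70 ± 0.08, and HOXA9 by 0.41 ± 0.15 (SE) with the opposite sign under library totals alone. Among the perirenal members were HOXB7 at -2.87 ± 0.10 (SE), HOXB3 and HOXA5, and the values of the last of them depended on the names. HOXA5 differed by -9.27 by its own name and by -0.34 as the group of HOXA4, HOXA5 and HOXA6, and HOXB3 by -3.77 and by -1.85 as the group of HOXB3 and HOXB4.

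In insulin and growth factor signaling 15 of 21 tested members were higher in muscle, 5 were higher in perirenal fat and 1 was not called (median 0.63), and under library totals alone 10 were higher in muscle and 6 in perirenal fat. DLK1, the imprinted inhibitor of fat cell differentiation, had 384 to 847 CPM (median 601) in muscle and 12.0 to 98.5 CPM (median 18.7) in perirenal fat. The locus that joins IGF2, the main fetal growth factor, with TH and an unnamed gene was higher in muscle by 5.36, at means of 3525 and 87.4 CPM. SLC2A4, the insulin-responsive glucose carrier, had means of 118 CPM in muscle and 34.6 CPM in perirenal fat, and IRS1, the docking protein of the insulin receptor, 61.8 CPM in muscle and 6.02 CPM in perirenal fat. SLC2A3, a carrier of other cells, was higher in perirenal fat at -0.74 ± 0.10 (SE). IGFBP4, an IGF binding protein, was also higher there at -0.92 ± 0.09 (SE), and PIK3R1, a subunit of the lipid kinase below the receptor, was higher in muscle at 0.21 ± 0.08 (SE), turning under library totals alone.

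Cell division genes showed no common direction. Of 27 tested members 11 were higher in muscle, 7 were higher in perirenal fat and 9 were not called (median 0.11), and under library totals alone 3 were higher in muscle and 15 in perirenal fat. MKI67, the proliferation antigen, differed by 0.93 ± 0.12, and AURKA, a kinase of the spindle, by -1.02 ± 0.10 (SE). TOP2A, a topoisomerase, was higher in muscle at 0.58 ± 0.09, PCNA, the replication clamp, at 0.37 ± 0.09 with a turn under library totals alone, and MCM6, a part of the replication helicase, was not called at 0.11 ± 0.07 (SE). Fibrous matrix genes were higher in muscle in 20 of 31 tested members, higher in perirenal fat in 6 and not called in 5 (median 1.04). COL1A1, of the main fibrillar collagen, had 670.4 to 1596 CPM (median 1299.8) in muscle and 90.6 to 1165 CPM (median 224) in perirenal fat, and ELN, elastin, had 203 to 372 CPM (median 299) in muscle and 6.37 to 190.1 CPM (median 26.2) in perirenal fat. FN1, fibronectin, and POSTN, periostin, were on the perirenal side at -0.94 ± 0.23 and -1.25 ± 0.21 (SE). COL3A1, COL4A1 and SPARC were higher in muscle at 0.87 ± 0.20, 0.75 ± 0.09 and 1.05 ± 0.14, and COL15A1 was higher in perirenal fat at -0.33 ± 0.08 (SE).

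Markers of other cell types moved with the tissues too, and their part in the differences above was not tested. Of 9 tested endothelial markers 8 were higher in perirenal fat (median -0.94), with a summed level of 2263 to 3443 CPM there and 1123 to 1511 CPM in muscle. VWF, the clotting factor carrier of vessel walls, had means of 243 CPM in muscle and 433 CPM in perirenal fat, and KDR, a receptor of VEGFA, had 103 to 183 CPM (median 155) in muscle and 665 to 1227 CPM (median 913) in perirenal fat, from a locus split in the muscle assembly. CDH5 and EMCN differed by -0.43 ± 0.10 and -0.56 ± 0.11, and TEK, the angiopoietin receptor, alone was higher in muscle at 0.36 ± 0.15 (SE), with the opposite sign under library totals alone. Of 8 tested nerve and Schwann cell markers 7 were higher in muscle, with a summed level of 618 to 2860 CPM against 83.1 to 300.7 CPM. The myelin gene PMP22 had 268 to 781 CPM (median 425) in muscle and 33.0 to 102 CPM (median 42.7) in perirenal fat. The glial gene S100B differed by 1.51 ± 0.15, and CDH19 was higher in perirenal fat at -2.06 ± 0.17 (SE). Lymphocyte markers were higher in perirenal fat in 6 of 8 tested, at 34.7 to 86.3 CPM in sum against 12.9 to 20.9 CPM, with PTPRC at means of 4.71 CPM in muscle and 19.3 CPM in perirenal fat. The T cell genes CD3E and LCK differed by -2.33 ± 0.20 and -1.79 ± 0.29, and the B cell gene CD79B was higher in muscle at 1.72 ± 0.31 (SE). Of 8 tested macrophage markers only AIF1 at -1.81 ± 0.15 and C1QC at 1.80 ± 0.28 (SE) were called, while under library totals alone 5 were higher in perirenal fat, 1 was higher in muscle and 2 were not called. C1QA, C1QB, MRC1 and CD14 were not, at 0.22 ± 0.19, -0.20 ± 0.17, -0.23 ± 0.12 and 0.10 ± 0.13 (SE). Of 9 tested smooth muscle and pericyte markers 3 were higher in each tissue, or 3 in muscle and 5 in perirenal fat under library totals alone, with SYNM, which skeletal fibers also make, at 8.05 ± 0.24 (SE). RGS5 and MYH11 were higher in perirenal fat at -4.53 ± 0.14 and -1.14 ± 0.16, and SMTN was higher in muscle at 1.44 ± 0.14 (SE).

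Markers of organs next to the perirenal depot were low or few. Of 12 kidney markers 10 were too low to test, and the sum over the list was 4.06 to 10.7 CPM in perirenal fat against 1.61 to 2.69 CPM in muscle. CUBN, cubilin of the proximal tubule, differed by -2.14 ± 0.24 (SE). Of the adrenal list only STAR and CHGA were tested, with STAR, the carrier that starts steroid synthesis, at means of 21.2 CPM in muscle and 36.5 CPM in perirenal fat. Of 5 tested mesothelial and urogenital markers 3 were higher in perirenal fat, WT1 among them at means of 1.39 CPM in muscle and 8.54 CPM in perirenal fat. GPM6A was higher in perirenal fat at -0.58 ± 0.20, and KRT8 and UPK1B were higher in muscle at 1.67 ± 0.54 and 5.88 ± 0.36 (SE). Red cell markers were higher in perirenal fat in 4 of 5 tested. Among these were ALAS2, SLC4A1 and AHSP, at -3.10 ± 0.13, -2.85 ± 0.19 and -1.91 ± 0.27, while EPB42 was at 0.20 ± 0.10 (SE). Cartilage and tendon markers were higher in muscle in 5 of 7 tested, with SOX9, the regulator of cartilage, at 11.1 to 20.9 CPM in muscle and no count in perirenal fat. COL2A1, the cartilage collagen, and CHAD were higher in muscle at 4.20 ± 0.34 and 2.73 ± 0.16, FMOD was not called at 0.58 ± 0.30, and COMP was higher in perirenal fat at -6.68 ± 0.27 (SE).

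Several further genes were among those with the largest differences at a mean of at least 50 CPM in the higher tissue. On the muscle side all of them but VGLL2, a listed myogenic regulator, stood outside the lists. These muscle-side genes were ATP1B4, a muscle protein related to the sodium pump's beta subunit, HSPB7, a small heat shock protein of striated muscle, KCNA7, a potassium channel, VGLL2, a cofactor of TEAD factors, ASB15, TMEM233, GADL1, ITGB6 and ATCAY. Among them only ATCAY had the same span in both tissues. HSPB7 had 98.1 to 191.4 CPM in muscle and no count in perirenal fat, at least 6511-fold higher. ATP1B4 had 531 to 731 CPM in muscle and 3 counts over the 12 perirenal libraries. ITGB6 had 159 to 258 CPM in muscle and 1 count in perirenal fat. All 12 muscle libraries lay above all 12 perirenal libraries in each of these 3 genes.

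On the perirenal side the same rule gave UCP1, PRLR, MUC20, TUSC5 and MYBPC3 beside 7 genes that are affected by joined names. UCP1 had the same span in both tissues. PRLR, MUC20, TUSC5 and MYBPC3 did not, so for them a difference in assembly and one between the tissues cannot be told apart. PRLR, the prolactin receptor, had 0 to 0.173 CPM (median 0.0568) in muscle and 81.4 to 174 CPM (median 115) in perirenal fat and a log2 fold change of -10.83 ± 0.19 (SE). MUC20, a membrane mucin, had 0 to 0.559 CPM (median 0.107) in muscle and 162 to 378 CPM (median 314) in perirenal fat. TUSC5, a protein of fat cell vesicles that carry the glucose carrier SLC2A4, had 0 to 0.503 CPM (median 0) in muscle and 36.7 to 235 CPM (median 114) in perirenal fat. MYBPC3 had 0 to 0.261 CPM (median 0.0586) in muscle and 68.4 to 98.5 CPM (median 84.9) in perirenal fat. It bears the name of the cardiac myosin-binding protein C, while its skeletal relatives MYBPC1 and MYBPC2 were higher in muscle at 10.91 ± 0.67 and 6.36 ± 0.18 (SE).

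The 7 affected genes were IQGAP1, SASH1, ZBTB11, SENP7, PRDX5, FAM13A and RPL23A, to which MALAT1 is added on the muscle side. In one tissue their reads were filed under a name joined with a neighbor, so their own name stood near 0. Linked names were then added together, which gives a value for the group and not for the gene alone. The log2 fold change moved from -14.98 to -0.25 for the group of IQGAP1 and from -12.86 to -0.03 for that of ZBTB11. It moved from -10.90 to -0.21 for the group of PRDX5 and from -10.65 to -0.48 for that of RPL23A. In perirenal fat the group of ZBTB11 had a mean of 2647 CPM and ZBTB11 by its own name 69.0 CPM, so the group value is mostly that of the neighbor. The groups of SASH1, SENP7 and FAM13A stayed on the perirenal side at -2.81, -2.46 and -2.93. That of MALAT1, a nuclear noncoding RNA, stayed on the muscle side at 2.07 in place of 15.87. Of all genes at least 4-fold different, 30 on the muscle side and 52 on the perirenal side had such a name. Of these 9 and 5 were still 4-fold on that side as a name group, and 14 and 11 were called on the other side.

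Among the genes at least 4-fold different, the highest CPM in perirenal fat after ADIPOQ and FABP4 was that of FABP5, ITGA7, ACSF2, RPL23A, TKT and GAL-1. RPL23A is affected by joined names, and its group differed by only -0.48. Its locus on chromosome 19 also lies on another chromosome than the RefSeq gene of this name. FABP5, the fatty acid binding protein of skin and macrophages also found in fat, had 316 to 659 CPM (median 455) in muscle and 1366 to 3854 CPM (median 2962) in perirenal fat. ACSF2, a mitochondrial acyl-CoA synthetase, had 52.2 to 77.1 CPM (median 58.6) in muscle and 1314 to 2933 CPM (median 2085) in perirenal fat. TKT, transketolase of the pentose phosphate path, had 42.8 to 64.3 CPM (median 52.6) in muscle and 1127 to 2539 CPM (median 1449) in perirenal fat. GAL-1, galectin 1, differed by -2.35 ± 0.12 (SE). In muscle the highest were the joined myosin locus, MYLPF, MYL1, ACTA1, TPM2, CKM, TNNT3 and TPM1. TPM2, beta-tropomyosin, had 17382 to 23420 CPM (median 19346) in muscle and 91.5 to 368 CPM (median 138) in perirenal fat. TPM1, alpha-tropomyosin, had means of 11170 CPM in muscle and 126 CPM in perirenal fat, and the perirenal means of the other 6 genes lay between 9.46 and 37.2 CPM.

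The tissue difference was compared between diets and between sexes. Of the genes at least 4-fold different, all that could be fitted kept their direction within each diet, 2397 in CN and 2426 in each of DG and HY, and 2394, 2424 and 2424 of them were called there. Within female pools all 2425 fitted kept it and within male pools all 2408. These genes were chosen on the same 12 pools, so their direction within a part of them is a description. No gene had a tissue difference that depended on diet at FDR ≤0.05 (0%) by the quasi-likelihood F test, with 880 genes at an unadjusted p under 0.05 and a smallest FDR of 0.136, whereas the likelihood-ratio test called 21 and DESeq2 13. Levels of single genes between diets within a tissue were not tested here.

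A total of 6 genes (0.0481%) had a tissue difference that depended on fetal sex at FDR ≤0.05, all of them with a larger muscle excess in female pools. The 5 with a symbol were MYL2, MYOZ1, TTN, KLHL41 and TNNT3, which serve the sarcomere or its assembly. The tissue difference of MYL2 on the log2 scale of CPM plus 0.5 was 12.47 in female and 9.21 in male pools (FDR = 0.0327, quasi-likelihood F test). In TTN it was 12.07 and 8.79 (FDR = 0.0411, quasi-likelihood F test). The summed level of ACTA1, CKM, MYH8 and TNNT3 in perirenal fat was between 5.98 and 23.2 CPM in the 6 female pools and between 41.9 and 230.5 CPM in the 6 male pools, with no overlap, while in muscle it was between 56150 and 84560 CPM over all 12 pools. TNNT3 stands both in this sum and among the called genes, and the part of these transcripts in the sex terms was not tested. Leaving out any one of 8 pools (CF2, DF1, DF2, DM1, DM2, HF1, HF2 or HM2) left 0 or 1 gene called, and leaving out HM1 raised the number to 10.

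**Figure D5:**
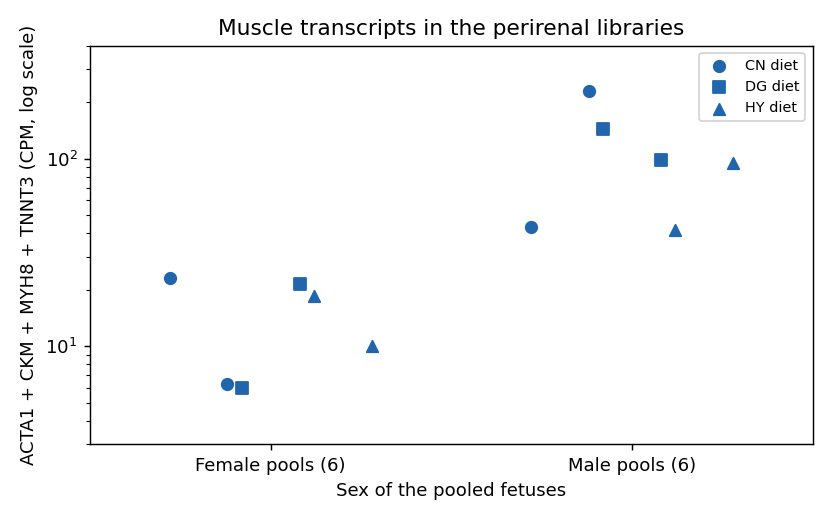
Summed level of 4 muscle genes in each of the 12 perirenal libraries, in CPM on a log axis, by sex of the pooled fetuses, with the marker shape giving the maternal diet. The 6 female pools lie between 5.98 and 23.2 CPM and the 6 male pools between 41.9 and 230.5 CPM.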

How the data were processed

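RNA of longissimus dorsi muscle and of perirenal adipose tissue was sequenced in 12 pools per tissue. The deposited files hold raw read counts per locus, which the authors made after aligning reads and assembling transcripts on Oar_v3.1, separately in each tissue. The submitters' processing notes name TopHat2 2.0.4, Cufflinks 2.1.1 and HTSeq, and the settings of the counting and its use of strand are not given in the sources used here. Loci were joined between tissues by gene name, and loci of the same name were summed, which gave 21766 names in both tissues. The 575 names found in muscle only and the 684 found in perirenal fat only, and loci without a name, were left out of the tests. Named loci took 93.7% to 96.4% of the counts in muscle and 86.7% to 92.4% in perirenal fat.

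Counts were scaled by TMM and the edgeR filter (at least 10 counts in enough libraries of a tissue, 15 in total) left 12485 genes. Tissue was tested with pool as a block by the quasi-likelihood F test of edgeR 4.0.16 in R 4.3.3, with 11 residual degrees of freedom and Benjamini-Hochberg adjustment over all genes (FDR ≤0.05). SE was taken from the size of the fold change on the log2 scale over the root of F. Tissue-by-diet and tissue-by-sex terms were tested in fits of the same kind. Same-numbered pools hold the same fetuses, which is where the pairing comes from. The correlation of their deviations from the diet means averaged 0.113 (-0.123 to 0.303), and it was above 0.1 in 6 of 12 pools. No 2 libraries agreed within sampling noise. Fold bounds for genes without a count use 3 counts over the group and cover counting error only. The scripts were tested on simulated data, and DESeq2 1.42.0 was an alternative.

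The comparison and the gene lists were chosen with earlier results of these data known. Genes were named by rule. These were the 12 largest differences per direction at a mean of at least 50 CPM, the 8 highest levels per direction among genes at least 4-fold different, the 4 highest members of each list with up to 3 members against its direction, the isoform pairs, and the 5 genes with the smallest FDR of each interaction where called. Other list members named in the text were chosen after their values were seen. Of 714 distinct list symbols 522 were tested, 65 had low counts, 16 stood within a joined name and 111 had no common name in both tissues. PPARG was matched as PPARG2 after the files were seen. Values of some list members are not reported here.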

Additional observations from a re-analysis of the deposited data

Results flagged for a closer look

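The tissue difference of 5 named genes depended on fetal sex by the test of the difference itself, the tissue-by-sex term of the quasi-likelihood F test of edgeR with pool as a block. MYL2, the slow myosin light chain, had an FDR of 0.0327, with a tissue difference of 12.47 in female and 9.21 in male pools on the log2 scale of CPM plus 0.5. MYOZ1, a Z-disc protein, had an FDR of 0.0411, with 9.47 and 7.21. TTN, titin, had an FDR of 0.0411, with 12.07 and 8.79. KLHL41, which stabilizes thin filament proteins, had an FDR of 0.0411, with 11.28 and 8.82. TNNT3, fast troponin T, had an FDR of 0.049, with 10.93 and 8.85. In each of the 5 genes the difference was larger in female pools. The summed level of ACTA1, CKM, MYH8 and TNNT3 in the perirenal libraries was 5.98 to 23.2 CPM in female and 41.9 to 230.5 CPM in male pools. TNNT3 is also 1 of the 5 genes, so the sum is not independent of them, and its part in these terms was not tested. Leaving out 1 pool at a time gave between 0 and 10 genes with a called sex term.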

How the results depend on the processing

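Restricting the fit to the 8198 genes with the same span in both tissues gave 3214 genes higher in muscle and 3384 higher in perirenal fat. Of these 708 and 480 were at least 4-fold, against 1499 and 927 in the fit of 12485 genes. The 4-fold counts thus fell further than the number of genes tested. IQGAP1, PRDX5 and MALAT1, which are affected by joined names, also had the same span, so this fit does not remove all such genes. In this fit 11 of the 33 list medians moved and 1, that of the brown fat list, changed sign. Without a filter on low counts 1403 genes were at least 4-fold higher in perirenal fat, from 18579 genes tested. Diet-dependent tissue differences were called in 21 genes by the likelihood-ratio test and in 13 by DESeq2. Sex-dependent ones were called in 3 genes without a filter, 34 by the likelihood-ratio test and 23 by DESeq2. Without the replicate block the counts were 5044 and 5129 called, 1489 and 926 at least 4-fold, 0 diet terms and 25 sex terms, the last being the only of these counts that moved by over 1.5 times.

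Leaving out each pool in turn gave 5002 to 5151 genes higher in muscle, 5047 to 5167 higher in perirenal fat, 1483 to 1521 and 915 to 940 at least 4-fold, 0 to 1 diet terms (1 without HF1) and 0 to 10 sex terms. Under library totals alone these called or named values changed sign: the brown fat median (-0.0792), the adrenal median (-0.0203), DYSF (-0.22), COX7A1 (-0.0792), SUCLG1 (-0.16), ATP5B (-0.30), ACAT1 (-0.15), FDFT1 (-0.10), HOXA9 (-0.0140), PIK3R1 (-0.21), PCNA (-0.0457), MCM6 (-0.30), TEK (-0.0523) and CD14 (-0.32). The brown fat median was -2.38 over genes of the same span, and ATP5A1 was 0.0482 in HY pools alone. The cause was not tested beyond the shift of all genes between scalings. Alternatives chosen after seeing the data gave 5176 and 5274 called with linked names joined (1530 and 909 at least 4-fold), and 5006 and 5092 without names that also stand in a joined name (1467 and 876). The muscle libraries hold more counts than the perirenal ones, so low genes are read less deeply in fat.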

Other observations

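MYOD1 had too few counts for the test, and its counts in muscle were not alike across diets. The 4 CN pools had 8 to 28 counts and the other 8 pools 59 to 107, while the 12 perirenal libraries had none. Scaled as CPM, the 4 CN pools had 0.747 to 2.44 and the other 8 pools 3.40 to 5.09. The paper tested diets within muscle and reported MYOD1 as lower under CN than under either DG or HY. Here the pattern was noticed after the values were seen and was not tested.

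Of the list members without a common name in both tissues, 24 had a value once linked names were added together, and 11 of these were higher in muscle, 9 were higher in perirenal fat and 4 were not called. G0S2, an inhibitor of adipose triglyceride lipase, was higher in perirenal fat at -3.29 and THRSP, a regulator of fatty acid synthesis, at -2.50, each as part of a joined locus.

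ADIPOQ in muscle ranged from 3.41 to 44.6 CPM over the 12 libraries, a wider relative range than in perirenal fat, where it was 2797 to 10828 CPM.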
